A study of Mus musculus with 2 samples.

Results

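Small nucleolar RNAs (snoRNAs) and small Cajal body RNAs (scaRNAs) were examined in brains of *Mir125b-2* maternal knockout (m-/p+) and wild-type mice. All rows of the expression table with the gene type snoRNA or scaRNA were taken, which gave 1559 of 128603 transcript rows, 1508 of them snoRNA and 51 scaRNA. Each genotype was represented by 1 library, made from the pooled RNA of 6 C57BL/6 mice at postnatal day 0. The knockout animals carried the mutation on the maternal copy only and kept a paternal copy, and the wild-type animals carried neither. The labels give whole brain as the tissue but describe isolation of the hippocampus, and RNA of marker genes for the thalamus (*Tcf7l2*, 23.2 FPKM in wild type and 27.4 FPKM in the knockout) and the hindbrain (*Hoxa5*, 6.91 and 5.74 FPKM) was present in both libraries beside that of the hippocampal marker *Prox1* (6.23 and 6.38 FPKM). With 1 library per genotype there is no error between replicates, no test was run, and every count and ratio below describes these libraries alone.

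snoRNAs guide chemical changes of ribosomal RNA in the nucleolus. Box C/D members carry a C box near the 5′ end and a D box near the 3′ end and guide methylation of ribose by fibrillarin. Box H/ACA members end in an ACA trinucleotide and guide the conversion of uridine to pseudouridine by dyskerin. scaRNAs do the same work on spliceosomal RNAs in Cajal bodies, and a few snoRNAs such as U3 and U8 take part in cutting the ribosomal RNA precursor. In mammals most of them are cut out of introns of other genes, called host genes, which often encode ribosomal proteins or translation factors.

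The unit is FPKM, fragments per length of transcript scaled to the number of mapped fragments, which the authors deposited for each transcript with 1e-05 in place of 0. That value is called the floor here, and a row above it is called listed. The number of reads behind a value is not given, so the depth is unknown. *Mir125b-2* itself stood at the floor in both libraries, and its host transcript *Mir99ahg* had 28.1 FPKM in wild type and 35.7 FPKM in the knockout, so the knockout could not be checked on the microRNA.

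Of the 1559 members, 196 were listed in at least 1 library and 1363 stood at the floor in both. Listed members made up 28.7% of the summed FPKM of all transcripts in each library. Because FPKM of short rows depends on their length, this is not a share of molecules. Their own sum was 498826 FPKM in wild type and 502648 FPKM in the knockout, a ratio of 1.01, and the 10 highest members gave 53.8% and 56.2% of it, respectively. The share listed differed by name. Of 41 members with a *Snora* name 33 were listed, as were 35 of 112 with a *Snord*, *Rnu3* or *AF357* name, 21 of the 51 scaRNA rows and 103 of the 1343 snoRNA rows with a predicted-gene (*Gm*) name. By comparison, 4.84% of 1385 snRNA rows, 0.59% of 2204 miRNA rows and 15.1% of 563 misc_RNA rows were listed, against 12.6% of the members. Of all 128603 transcript rows 77086 were listed, and of the 17633 other transcripts no longer than the longest member 21.9%. Members were thus listed less often than transcripts in general and than other short transcripts.

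Box sequences followed the class names in part. The C box TGATGA was searched in the first 15 bases and the D box CTGA in the last 12, and ACA was searched at the position that leaves 3 bases after it, all on the transcribed strand of the GENCODE M21 transcripts (GRCm38). A C and a D box were both found in 65 of the 112 members with a C/D name and in 0 of the 41 with a *Snora* name. An ACA end was found in 34 of those 41 and in 0 of the 112. Among the 103 listed *Gm* rows of type snoRNA, 32 held both a C and a D box and 49 an ACA end. Over the 17633 other transcripts no longer than the longest member, 0.0284% held both boxes and 1.81% an ACA end. The H box ANANNA is short and degenerate: it was found in the central part of 78.1% of members and of 70.3% of these other transcripts, and was not used.

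Members shown here are those on which the later comparisons turn, with the C box, the D box or the ACA in capitals. The first set lies on the plus strand of chromosome 11 in the non-coding transcript *2410006H16Rik*, at chr11:62603079-62603150 (*Snord49b*), chr11:62603450-62603521 (*Snord49a*) and chr11:62604515-62604586 (*Snord65*). All of them are 72 bases long, so a difference in level between them does not come with one in length.
Snord49b: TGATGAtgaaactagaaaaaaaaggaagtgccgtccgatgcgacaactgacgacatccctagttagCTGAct
Snord49a: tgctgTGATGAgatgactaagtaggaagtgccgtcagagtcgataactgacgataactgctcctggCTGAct
Snord65: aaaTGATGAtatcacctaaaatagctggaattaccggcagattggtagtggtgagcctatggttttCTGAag

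The second set lies in introns of *Rpl13a*, which encodes a protein of the large ribosomal subunit, on the minus strand of chromosome 7 between chr7:45126346-45126435 (*Snord35a*) and chr7:45127382-45127464 (*Snord32a*). *Snord34* holds a D box but not the exact C box letters, and *Snord35a* holds neither within the windows searched, which says nothing about whether they work.
Snord32a: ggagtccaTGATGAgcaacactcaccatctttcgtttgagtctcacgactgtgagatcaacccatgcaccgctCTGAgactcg
Snord33: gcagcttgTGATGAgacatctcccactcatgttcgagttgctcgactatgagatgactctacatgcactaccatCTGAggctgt
Snord34: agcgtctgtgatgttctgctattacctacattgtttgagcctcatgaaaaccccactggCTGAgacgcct
Snord35a: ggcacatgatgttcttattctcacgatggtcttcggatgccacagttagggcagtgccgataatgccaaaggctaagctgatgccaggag

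The third set comes from the repeated copies in and beside *Snhg14*, on the minus strand of chromosome 7. *Gm23767* (chr7:59708469-59708562), *Gm25615* (chr7:59864240-59864333) and *Snord116l14* (chr7:59871864-59871957) are 94 bases long, and each pair of them differs at 2 positions. *Gm25175* (chr7:59470034-59470112) and *Gm26337* (chr7:59423055-59423133) are 79 bases long and differ at 5.
Gm23767: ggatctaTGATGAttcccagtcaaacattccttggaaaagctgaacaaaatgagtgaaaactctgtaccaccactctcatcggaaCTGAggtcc
Gm25615: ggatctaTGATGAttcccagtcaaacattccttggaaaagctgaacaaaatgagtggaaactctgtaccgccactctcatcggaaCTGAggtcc
Snord116l14: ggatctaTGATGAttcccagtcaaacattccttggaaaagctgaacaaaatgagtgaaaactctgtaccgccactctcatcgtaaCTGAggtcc
Gm25175: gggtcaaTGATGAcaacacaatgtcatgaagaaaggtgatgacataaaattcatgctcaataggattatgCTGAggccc
Gm26337: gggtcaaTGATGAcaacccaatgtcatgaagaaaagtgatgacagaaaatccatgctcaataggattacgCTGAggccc

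The last set holds abundant or changed members of the longer kind. *Gm22988* (chr11:69669635-69669778, minus strand, in *Eif4a1*), *Gm22422* (chr16:56035753-56035887, minus strand, in *Trmt10c*) and *Snora52* (chr7:141448803-141448939, plus strand, in *Rplp2*) end in ACA at the searched position. *Gm26447* (chr16:23111301-23111429, plus strand, in *Eif4a2*) holds none of the searched boxes.
Gm22988: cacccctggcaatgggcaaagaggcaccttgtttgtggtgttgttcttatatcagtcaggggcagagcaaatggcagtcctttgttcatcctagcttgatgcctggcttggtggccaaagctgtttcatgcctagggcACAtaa
Gm22422: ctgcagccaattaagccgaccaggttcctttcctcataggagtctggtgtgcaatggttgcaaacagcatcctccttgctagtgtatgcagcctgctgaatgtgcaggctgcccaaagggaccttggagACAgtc
Snora52: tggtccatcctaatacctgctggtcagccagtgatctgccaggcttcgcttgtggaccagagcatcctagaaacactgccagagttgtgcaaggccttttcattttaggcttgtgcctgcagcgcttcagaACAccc
Gm26447: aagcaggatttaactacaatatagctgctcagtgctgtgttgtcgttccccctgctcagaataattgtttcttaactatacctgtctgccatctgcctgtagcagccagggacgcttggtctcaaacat

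Of the 10 members with the highest mean, 7 were lower in the knockout library and 3 were higher. *Snord49b*, which guides methylation of 28S ribosomal RNA in human cells, was highest, with 61019.8 FPKM in wild type and 53024.5 FPKM in the knockout, a ratio of 0.87. *Snord104* had 51282 and 36783 FPKM. The members with predicted-gene names that lie inside genes of the eIF4 translation initiation factors and among the 10 highest differed little. *Gm22988* in *Eif4a1* had 39907.3 and 35890 FPKM. *Gm26447* in *Eif4a2* had 31742.5 and 29182.5 FPKM. *Gm23262* in *Eif4g2* had 19449.3 and 17655.1 FPKM. *Snord22* (U22), which is needed for 18S ribosomal RNA processing, lies in *Snhg1* and had 20321.3 and 16355.5 FPKM. *Gm22486* in *Ptcd3* had 11083.3 and 9952.09 FPKM. All of these were lower in the knockout, by ratios from 0.72 to 0.92. The other members among the 10 highest, *Gm26202*, *Snord65* and *Snord110*, were at least 2-fold higher there.

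The RNAs that are transcribed from genes of their own also stayed close. *Snord118* (U8), which acts in processing of the large-subunit ribosomal RNAs, had 399.5 FPKM in wild type and 447.2 FPKM in the knockout. *Snord13*, which guides acetylation of 18S ribosomal RNA, had 1993.86 and 2491.91 FPKM. The U3 gene *Rnu3a* has 2 overlapping rows, with 1235.29 and 1303.9 FPKM and with 983.6 and 1144.35 FPKM. These members were higher in the knockout by ratios from 1.06 to 1.25. The *Rnu3b* copies on chromosome 11 hold identical sequences in part, and only *Rnu3b4* was listed. *Snora73a* and *Snora73b* (U17), which act in 18S processing, lie in both *Snhg3* and *Rcc1* and had 2245.47 and 2058.31 FPKM and 1862.45 and 1883.79 FPKM, respectively.

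Of the 196 listed members, 133 were above the floor in both libraries, and each of these had a mean FPKM of at least 1. Their median ratio of knockout to wild type was 1.07, with quartiles of 0.87 and 1.34, and 106 lay within 2-fold. In the knockout 18 members were at least 2-fold higher and 9 were at most 0.5-fold. These are 13.5% and 6.77% of the 133. By the same rule 4.22% of 33240 transcripts of all kinds were higher and 3.40% lower, and among 1234 other transcripts no longer than the longest member 16.4% were higher and 13.7% lower. Members thus passed the 2-fold line more often than transcripts in general and less often than other short transcripts, a description of these libraries only. Over the 193 members with a mean FPKM of at least 1, floor read as 0, the median log2((knockout + 1)/(wild type + 1)) was 0.08, against 0.01 over 33592 transcripts of all kinds. A further 63 of the 196, or 32.1%, stood at the floor in 1 library only, 35 of them listed in wild type and 28 in the knockout. Over all listed transcripts 22.4% did so, and over the other short ones 50.1%. In the plot of one library against the other 106 of the 133 lie within 2-fold of the diagonal. Some members of high FPKM lie beyond it, such as *Snord65*, whose wild-type value was the lowest listed at its length. The rows at the floor in 1 library reach from 0.012 FPKM (*Snora43*) to 12141.5 FPKM (*Gm25744*) in the other.

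**Figure D1:**
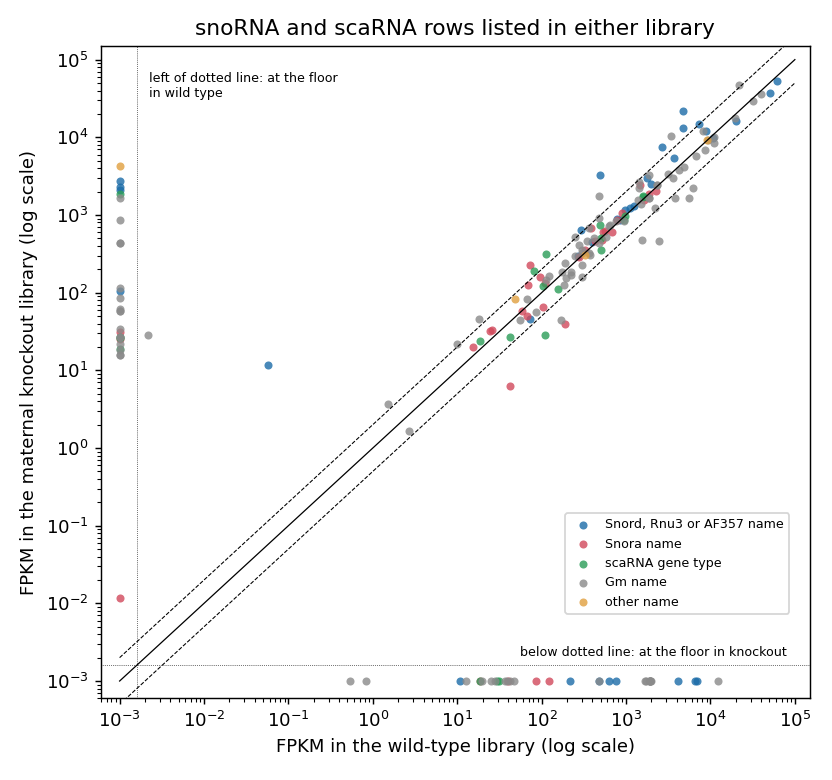
FPKM of the 196 listed members in the wild-type library (x axis, log scale) and the maternal knockout library (y axis, log scale), coloured by name or gene type, with the solid line at equal values and dashed lines at 2-fold. Values at the floor are drawn at the left and lower edges beyond the dotted lines; 106 members lie between the dashed lines, and 63 at an edge.

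The higher and lower members were mostly short or near the lowest value listed. Of 463 members under 100 bases 55 were listed, and they carried 54.3% of the summed member FPKM in wild type and 57.6% in the knockout. The lowest FPKM listed differed with length. Among rows that overlap no other member row, it was 4723.44 FPKM in wild type and 4307.39 FPKM in the knockout for members of 70 to 74 bases, 1694.91 and 1652.96 FPKM for 75 to 79 bases, 12.5 and 6.34 FPKM for 130 to 139 bases, 25.9 and 27.2 FPKM for 140 to 149 bases, 1.5 and 1.66 FPKM for 200 to 249 bases, and 176 and 186.2 FPKM from 250 bases. Overlapping rows, described further on, were left out of these lowest values and reached lower ones, such as 0.0022 FPKM in *Gm22711*. A member of 70 to 74 bases was therefore either at the floor or at 4307.39 FPKM or more. Among members of 100 bases or more that were above the floor in both libraries, 10 of 104 were higher and 4 lower, and the median size of the log2 ratio was 0.28. Among those under 100 bases 8 of 29 were higher and 5 lower, and the median size was 0.81.

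**Figure D2:**
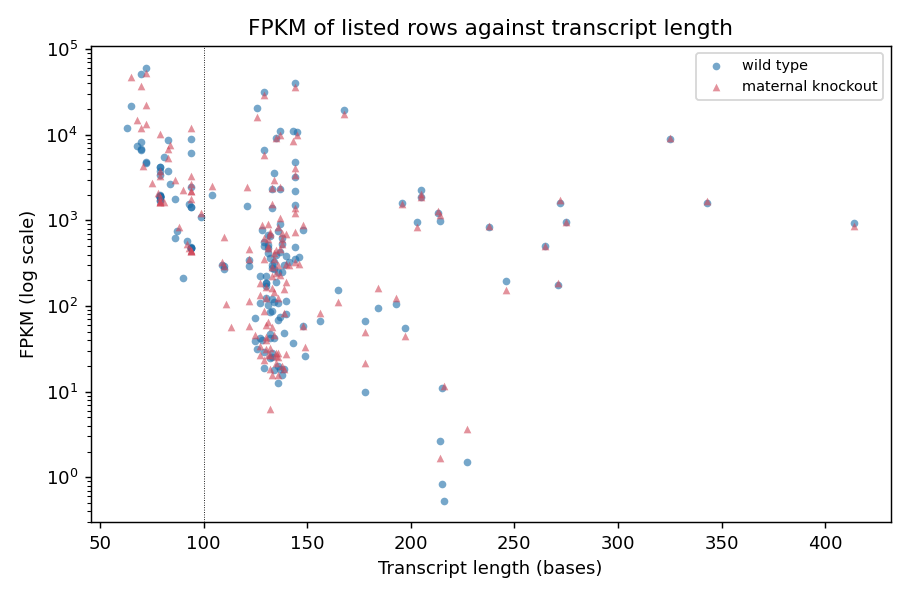
FPKM (y axis, log scale) of listed members against transcript length in bases (x axis), as circles for wild type and triangles for the maternal knockout; values under 0.1 FPKM are left out. The dotted line marks 100 bases, and the lowest values of rows that overlap no other fall from 4723.44 FPKM in wild type at 70 to 74 bases to 12.5 FPKM at 130 to 139 bases.

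Each member was then set against the lowest FPKM listed in the same library for any member of its length or shorter that overlaps no other member row, a scale chosen after the values were seen. For 73 members the mean was at least 10 times that value. All of them were above the floor in both libraries, 4 were at least 2-fold higher and 1 was at most 0.5-fold, and the median size of the log2 ratio was 0.18. For 122 members the mean was under 10 times the lowest value, 62 of them at the floor in 1 library; of the other 60, 14 were higher and 8 lower, with a median size of 0.64. In 14 of all 18 higher members and 7 of the 9 lower ones, the lower of the values was within 3 times the lowest listed. Of the 63 at the floor in 1 library, 55 were within 3 times the lowest value in the other and 0 reached 10 times. *Gm25744*, at 63 bases the shortest listed member, could not be placed, because no member as short was listed in the knockout.

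The higher members with a mean of at least 100 FPKM were led by *Snord83b* in *Rpl3*, with 495.2 FPKM in wild type and 3273.18 FPKM in the knockout, a ratio of 6.61. *Gm25615*, one of the *Snhg14* copies, had 474.4 and 1764.47 FPKM. *Snora52* in the ribosomal protein gene *Rplp2* had 73.6 and 229.2 FPKM, while *Rplp2* had 252.5 and 278.3 FPKM. That made *Snora52* the only *Snora* member among the 18 higher ones, and at 137 bases it stood 5.87 times above the lowest value in wild type and 36.2 times above it in the knockout. *Scarna3a*, a guide for spliceosomal RNA, had 114 and 309.8 FPKM, a ratio of 2.72, and *Gm23119*, of type scaRNA, had 81.2 and 189.9 FPKM. *Gm26130* in the chaperonin gene *Tcp1* had 248.5 and 525.7 FPKM and was the only member past 2-fold whose lower value was at least 10 times the lowest listed. *Snord89* had 294.8 and 636.8 FPKM. Just past the 2-fold line lay *Snord110* (ratio 2.02), *Gm26130* (2.12) and *Snord89* (2.16), and just short of it *Gm23639* (1.91), *Gm25788* (1.90) and *Gm24264* (1.86).

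The lower members with a mean of at least 100 FPKM were led by *Gm22776*, a copy in *Snhg14*, with 2452.93 FPKM in wild type and 457 FPKM in the knockout, a ratio of 0.19. *Snora30* in the chromatin remodeller gene *Srcap* had 187.7 and 39.7 FPKM, a ratio of 0.21, while *Srcap* had 21.7 and 21.8 FPKM. *Gm24620* in the kinesin gene *Kif13a* had 169.4 and 43.8 FPKM. *Gm24494* in *Rabggtb* had 5515.72 and 1661.9 FPKM. The knockout values of *Snora30*, *Gm24620* and *Gm24494* were 1.26, 1.39 and 1.01 times the lowest listed for their length or shorter. *Snora3* in the ribosomal protein gene *Rpl27a* had 42.5 and 6.34 FPKM, and its knockout value was itself the lowest at its length. On the other side of the 0.5-fold line the nearest members were *Gm24616* in *Eif4a2* (0.53), *Gm25848* in *Fbxo45* (0.56) and *Gm22865* (0.62). *Gm24888* in *Rpl27a* had 185.3 and 125.3 FPKM. *Gm23751* of type scaRNA in *Chd4* had 110 and 28.3 FPKM, and the remaining lower members lie around *Snhg14*.

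The members at the floor in 1 library included well-known guides. *Snord34* had 6914.07 FPKM in wild type and was at the floor in the knockout, as were *Snord82* in the nucleolin gene *Ncl* (6591.19 FPKM), *Gm25744* in *1110038B12Rik* (12141.5 FPKM) and the *Snhg14* copy *Gm25449* (1966.99 FPKM). *Rnu73b* in *Rps3a1* had 4307.39 FPKM in the knockout and was at the floor in wild type, as were *Snord66* in *Eif4g1* (2742.1 FPKM), *Snord35a* in *Rpl13a* (2271.47 FPKM), *Snord53* in *Wdr43* (2070.45 FPKM) and *Scarna17* (1889.21 FPKM). All of these 9 are between 63 and 90 bases long, and no fold is given against the floor. The host genes of 7 of them had ratios from 0.99 (*Ncl*, 65.2 and 64.3 FPKM) to 1.05 (*1110038B12Rik*, 53.7 and 56.5 FPKM), with *Rpl13a* at 426 and 427.7 FPKM. *Scarna17* and *Gm25449* were contained in no other row on the same strand.

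Some genes are entered as overlapping rows that differ by a base or a few, and reads of the gene could go to either. *Gm22711* had 0.0022 and 28.4 FPKM in its 135-base row and 28.2 FPKM and the floor in its 133-base row, for wild type and knockout, respectively. *Rnu3b4* had 0.057 and 11.8 FPKM in one row and 10.9 FPKM and the floor in the other. Both first rows count among the 18 higher members, yet the sums over the rows were 28.2 and 28.4 FPKM for *Gm22711* and 11 and 11.8 FPKM for *Rnu3b4*. The *Snora16a* rows had the floor and 25.7 FPKM and 18.5 FPKM and the floor, with sums of 18.5 and 25.7 FPKM. A row named *Snhg7* of type snoRNA overlaps *Snora43* and had 48.9 and 82.7 FPKM. With overlapping rows summed, an alternative chosen after the values were seen, 16 members were higher, 9 lower and 56 at the floor in 1 library.

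The scaRNAs covered a wide range and the long ones hardly differed. Those of 250 bases or more were *Gm25395* (1577.85 FPKM in wild type and 1744.23 FPKM in the knockout) and *Scarna6* (509.3 and 505.3 FPKM), both in the autophagy gene *Atg16l1*, *Gm22009* in *Kpna4* (1599.69 and 1708.65 FPKM), *Scarna13* (961 and 964.3 FPKM) and *Scarna2* (942.7 and 853.7 FPKM). Their ratios ran from 0.91 to 1.11. *Scarna10* (U85 in human cells, a guide for U5 RNA), whose row has the type snoRNA, had 8997.65 and 9096.54 FPKM, a ratio of 1.01. The shorter ones spread more: of the 14 scaRNA rows above the floor in both libraries, *Scarna3a* and *Gm23119* were higher and *Gm23751* was lower. *Gm22442* in *Chd3* had 488.4 and 734.6 FPKM, *Gm25492* 505.9 and 356 FPKM, *Gm22767* 156.1 and 112.8 FPKM, *Gm26083* in *Snhg20* 104.7 and 122.6 FPKM, *Gm25820* 42.4 and 26.6 FPKM, and *Gm23370* 18.7 and 23.7 FPKM. None of these passed 2-fold. The other 7 listed were at the floor in 1 library: *Scarna17*, *Scarna8*, *Gm24289* and *Scarna3b* in wild type, and *Gm26413*, *Gm22728* and *Gm24644* in the knockout. Apart from *Scarna17* they had at most 31.2 FPKM in the other.

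Members of the same host gene differed in level or ratio in some hosts and were alike in others. In *Snx5*, *Gm26165* had 624.9 and 720.1 FPKM and *Snord17* 841.5 and 863.3 FPKM, and *Snora73a* and *Snora73b* in *Rcc1* were also alike. The 3 members of *2410006H16Rik*, whose sequences are given above, are of equal length. *Snord49b* had 61019.8 and 53024.5 FPKM, *Snord49a* 4765.78 and 13357.7 FPKM, and *Snord65* 4723.44 and 22044 FPKM, so their ratios were 0.87, 2.80 and 4.67, while the host had 89.7 and 116.4 FPKM. In wild type *Snord49a* and *Snord65* stood at or within 1.01 times the lowest value at their length. In *Rpl13a*, *Snord32a* had 3730.69 and 5434.8 FPKM and *Snord33* 2633.72 and 7599.61 FPKM, while *Snord34* was listed in wild type alone and *Snord35a* in the knockout alone; *Snord35b* in the same region was at the floor in both. In *Nop56*, which encodes a core protein of the box C/D particle itself, *Snord110* had 7335.71 and 14843.4 FPKM, *Gm23650* 8202.15 and 11902.3 FPKM and *Gm24451* 25.3 FPKM and the floor, and the host had 58.2 and 60.8 FPKM. Among members of *Snhg12*, a non-coding host, *Snora44* had 560.4 and 616.1 FPKM and *Snora61* 123.4 FPKM and the floor, beside the *Snora16a* rows. In *Eif4a1*, *Gm22988*, *Gm25835* and *Gm24029* had 39907.3, 4831.58 and 37.2 FPKM in wild type at lengths of 143 to 144 bases.

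**Figure D3:**
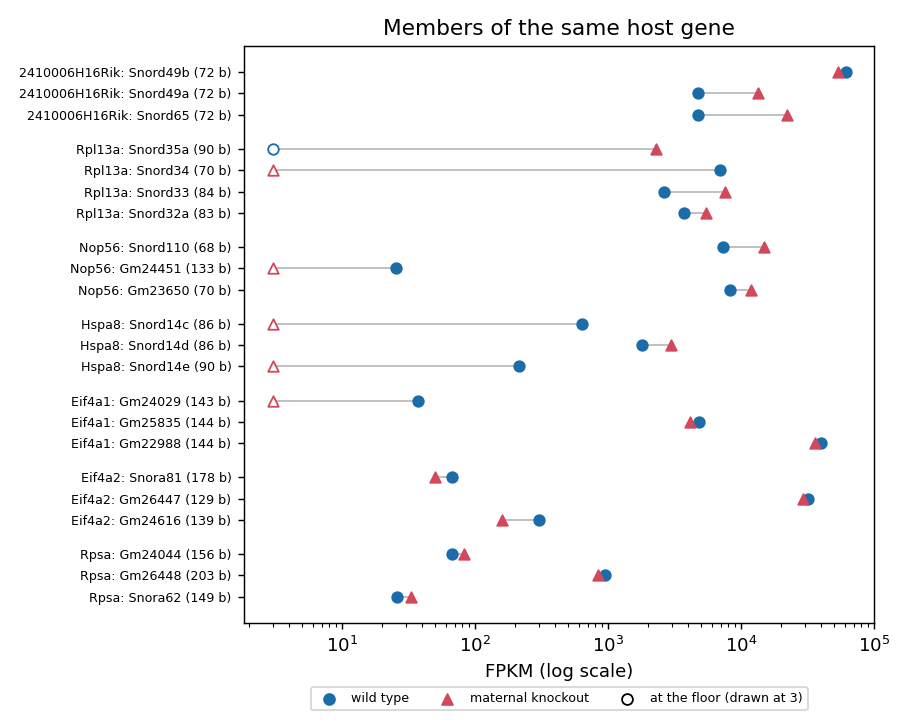
FPKM (x axis, log scale) of members that share a host gene, 1 line per member with its host, name and length in bases; circles give wild type, triangles the maternal knockout and open symbols a value at the floor, drawn at 3 FPKM. *Gm22988* and *Gm26447* lie at nearly the same place in both libraries, whereas *Snord49a* and *Snord65* are 2.80 and 4.67 times higher in the knockout.

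Host genes as a whole hardly differed between the libraries. A protein_coding or lincRNA row on the same strand contained 139 of the 196 listed members, or 70.9%, and 275 of the 1363 at the floor, or 20.2%. The 139 fell into 108 host genes, 6 of them lincRNA, and 98 of the 108 differed by less than 1.2-fold. Only *Gm28285*, which contains *Snora74a* and *Mir1949*, was at least 2-fold higher (3.16 and 6.51 FPKM), and 0 were at most 0.5-fold. Over all protein_coding genes with a mean of at least 1 FPKM these shares were 0.350% and 0.365%. *Snora74a* itself, whose other containing gene is *Snhg4*, had 1618.72 and 1540.87 FPKM. Hosts encoding ribosomal proteins were the 19 genes that held 27 listed members, with host ratios from 0.92 to 1.92 and a median of 1.02. The highest of those ratios was that of *Rpl17* (40.9 and 78.7 FPKM), which contains *Gm26202* (21542.2 and 46885.3 FPKM, ratio 2.18), so that member and host were both near 2-fold higher in the knockout library. At 65 bases *Gm26202* stood at 1.77 times the lowest value in wild type, and its knockout value was itself the lowest listed for its length or shorter. The 8 hosts for translation initiation and elongation factors, their kinases and poly(A)-binding proteins held 13 listed members. Of the 10 above the floor in both libraries 0 passed 2-fold in either direction, and 3 (*Snord66*, *Gm24029* and *Gm23346*) were at the floor in 1 library. Over all 133 members above the floor in both, 13.5% were higher and 6.77% lower, so 0 of 10 says little about these hosts. Among the 22 such members of ribosomal protein hosts, 4 were higher and 1 was lower.

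Ratios of members were only weakly correlated with those of their hosts. Across the 98 members above the floor in both libraries that had a host, Pearson's r between the log2 ratios was 0.13 and Spearman's rho was 0.06. These points share the same libraries, and they come from 80 host genes. Without *Gm26202* r was 0.083, and without the *Rnu3b4* row, which overlaps another, it was 0.091. Over the 61 of them at 10 times the lowest value or more it was 0.016. With a host of any type it was 0.21, and over members with a mean of at least 100 FPKM 0.16. The median log2 ratio over the 108 hosts was 0.03. As 98 of the 108 hosts differed by less than 1.2-fold, host ratios left little range in which r could show a link. For levels the correlation was close to 0. Over 64 members of 120 to 149 bases, a range in which length varies little, Spearman's rho between member and host FPKM was -0.016 in wild type and 0.017 in the knockout. The mean FPKM of a member was from 0.080 times that of its host (*Snora62* in *Rpsa*, 29.4 against 366.6 FPKM) to 1759 times (*Gm22422* in *Trmt10c*, 9186.14 against 5.22 FPKM), with a median of 9.67 times. Members and hosts differ in length, and FPKM of short rows depends on length, so these multiples are not multiples of molecules. *Gm22422* was nearly equal in both libraries, with 9257.19 and 9115.09 FPKM.

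**Figure D4:**
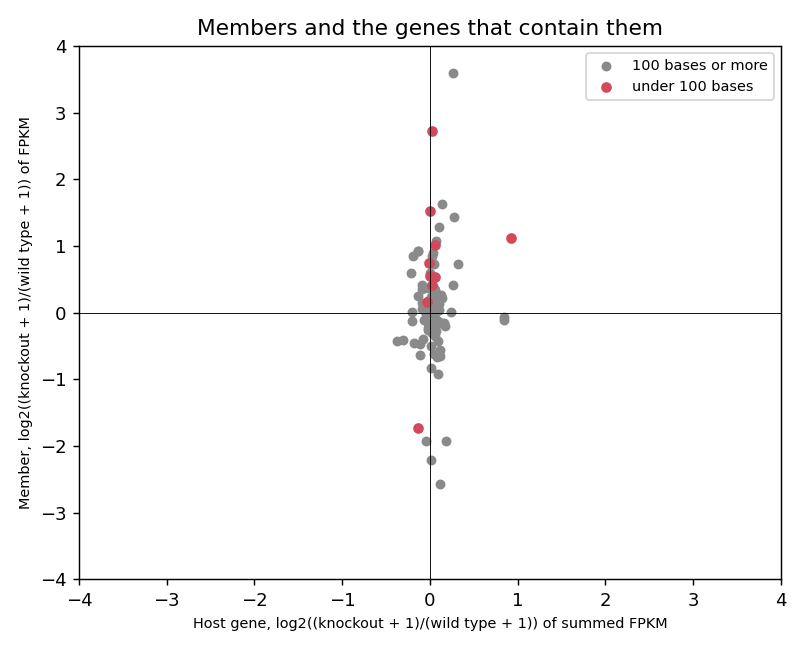
Log2((knockout + 1)/(wild type + 1)) of FPKM for 98 members (y axis) against that of the summed FPKM of the host gene (x axis), on equal scales, with members under 100 bases in red. Hosts lie close to 0 on the x axis, with *Rpl17* and *Gm28285* apart at 0.93 and 0.85, while members spread over the y axis (r = 0.13).

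The copies around *Snhg14* are the largest group of like sequences. The region is known for snoRNAs that are expressed in neurons from the paternal chromosome only and are lost in Prader-Willi syndrome. It held 210 members between positions 59342226 and 59980945 of chromosome 7 (GRCm38), of which 28 were listed, 14 of them in both libraries. *Snord64* and *Snord107* were at the floor, as were the *Snord116* names other than *Snord116l14*, which was 1 listed of 17. The other listed members have *Gm* names. The summed FPKM of the region was 47513.8 in wild type and 36464 in the knockout, whereas *Snhg14*, the long transcript whose rows contain 13 of the 28, had 199.2 and 191.1 FPKM.

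The 94-base copies, 68 in number with 25 different sequences, differ from *Gm23767* at a median of 2 positions and at most 5. Of these 10 were listed, most of them at near-whole multiples of the lowest value. In wild type the lowest value was 474.3 FPKM, and 7 of 8 listed values were within 0.05 of a whole multiple of it, up to 13 times in *Gm23767* (6164.15 FPKM). In the knockout the lowest was 441 FPKM, and 8 of 8 were within 0.05 of a whole multiple, up to 6 times in *Gm24264* (2646.59 FPKM). In both libraries the count includes the lowest value itself, which is a whole multiple by definition. *Gm25615* thus stood at 1 step in wild type and 4 in the knockout, and *Gm22776* at 5.17 and 1.04. In which copies a value appeared differed: 6 were listed in both libraries, 2 in wild type only and 2 in the knockout only. Summed over the copies, the values were 13360.1 and 10601.4 FPKM, a ratio of 0.79, or 28.2 and 24 steps. How many reads make up a step is not given in the sources used here, nor is the way reads were shared among copies that match equally well. *Gm26433* has the same sequence as 29 other rows, all at the floor.

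Of the 130 copies of 79 bases, which hold 52 different sequences, 15 were listed, 8 in wild type only, 1 in the knockout only and 6 in both. *Gm25175* had the highest mean, with 3389.76 FPKM in wild type and 10295.4 FPKM in the knockout, and *Gm25648*, the highest in wild type, had 4239.23 and 3777.29 FPKM. *Gm23145* went the other way, with 3789.35 and 1656.91 FPKM. The 8 seen only in wild type had between 1694.91 and 1966.99 FPKM, all within 1.16 times the lowest value at that length. Near-whole multiples of the lowest value were 3 of the 14 values in wild type and 5 of the 7 in the knockout. Each count includes the lowest value itself, which is a whole multiple by definition. The sums over the copies were 32012.3 and 24004 FPKM, a ratio of 0.75. The 94-base and the 79-base copies thus each had single copies past 2-fold in both directions, while their sums did not pass it. Listed members of other lengths in the region were *Gm22584* (92 bases, 575.5 and 527.7 FPKM), *Gm26097* (93 bases, 1565.95 and 482 FPKM) and *Gm22496* (88 bases, the floor and 848.8 FPKM).

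**Figure D5:**
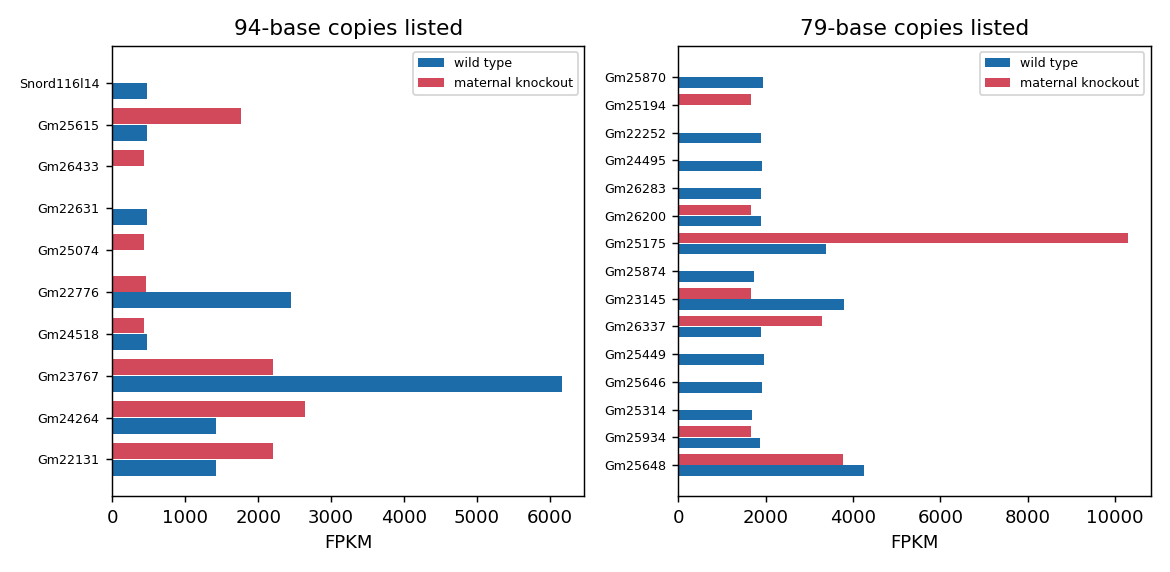
FPKM (x axes) of each listed 94-base copy (left) and 79-base copy (right) of the *Snhg14* region, with blue bars for wild type and red bars for the maternal knockout, in the order of transcription from top to bottom of the minus strand; a missing bar is a value at the floor. Most bars on the right are near the lowest values there, 1694.91 and 1652.96 FPKM. Bars on the left reach from the lowest values, 474.3 and 441 FPKM, up to 13 and 6 times these.

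The other large imprinted cluster, on chromosome 12 between *Meg3* and *Mirg*, is expressed from the maternal chromosome. Its 23 members, of 68 to 82 bases between positions 109631074 and 109689544, were at the floor in both libraries, including *AF357341*, *AF357425*, *AF357428*, *DQ267100*, *DQ267101* and *DQ267102*. The host transcript *Rian* had 5.41 FPKM in wild type and 5.47 FPKM in the knockout, *Mirg* 27 and 29.6 FPKM, and *Meg3* was listed at 0.071 and 0.15 FPKM. For other members the lowest value listed in either library was 7335.71 FPKM at 60 to 69 bases (wild type) and 4307.39 FPKM at 70 to 74 (knockout). It was 1652.96 FPKM at 75 to 79 bases (knockout) and 629.6 FPKM at 80 to 89 (wild type). With the depth unknown, the level that would have been seen here cannot be given.

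RNA of the genes for proteins that make, bind and trim these RNAs was mostly close to equal, and protein was not measured. The genes of the box C/D core proteins had ratios from 0.99 (*Nop58*) to 1.08 (*Snu13*). The methyltransferase gene *Fbl* had 28.5 FPKM in wild type and 30.7 FPKM in the knockout. The genes of the H/ACA core proteins had ratios from 0.95 (*Nhp2*) to 1.198 (*Gar1*), with the pseudouridine synthase gene *Dkc1* at 8.82 and 9.04 FPKM. By comparison, 0.350% of all protein_coding genes were at least 2-fold higher and 0.365% at most 0.5-fold, so that counts of 0 in lists this short say little about them. Of the 12 assembly factor genes that were found, 0 passed 2-fold. The lowest ratios were 0.65 for *Shq1*, which encodes a chaperone of dyskerin (2.48 and 1.62 FPKM), and 0.79 for *Zfp593* (4.63 and 3.68 FPKM). Nor did any of the 9 Cajal body genes pass 2-fold. Among them were the scaffold gene *Coil* (11.8 and 11.2 FPKM) and *Wrap53*, whose product brings scaRNAs to the body (5.21 and 5.59 FPKM). The lowest ratio of the 9 was 0.77 for *Gemin2* (2.98 and 2.28 FPKM). The 7 genes of debranching and trimming had ratios from 0.84 for the lariat debranching enzyme *Dbr1* to 1.12 for the exosome helicase *Mtrex*. Of the 17 non-coding hosts on the list with a mean of at least 1 FPKM, ratios ran from 0.92 for *Snhg5* to 1.27 for *Snhg3*, and *Gas5*, which contains *Gm22357* (8696.18 and 6908.32 FPKM), had 175.8 and 195.7 FPKM.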

How the data were processed

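RNA of 2 pools of 6 mice was depleted of ribosomal RNA and made into strand-specific libraries. Per the submitters' processing notes, the authors used bcl2fastq, Trimmomatic 0.36, HISAT2 2.1.0 and Cuffdiff with GRCm38.p5; of Cuffdiff the version is not given in the sources used here, nor are its settings or the fragment length. FPKM per transcript were what the authors deposited, with 1e-05 where nothing was estimated. Tools of this kind divide by a length corrected for fragment size, which is small for short transcripts, so FPKM of members of different lengths were not read as numbers of molecules. The deposited ratio, log2 ratio, p-value and q-value columns are the authors' comparison and were not used.

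Here 1e-05 was read as 0. Values were processed with python 3.11.15, numpy 2.4.6, pandas 2.3.3 and scipy 1.17.1, and drawn with matplotlib 3.10.9. A ratio was taken where a row was above the floor in both libraries with a mean FPKM of at least 1, and rows at a ratio of at least 2 or at most 0.5 were counted. Log2 values have a pseudocount of 1 FPKM, which understates changes of low rows. A host is the protein_coding or lincRNA gene with the highest mean summed FPKM that has a row containing the member on the same strand, by the deposited coordinates. Where a host of another type is named (*2410006H16Rik*, *Snhg1*, *Snhg3*, *Snhg4*, *Snhg14*, *Gas5*, *1110038B12Rik*), it was taken without regard to type. Sequences came from GENCODE M21 transcripts, which held all 1559 members at their listed lengths. The 2-fold counts, the log2 ratio and the search for hosts were tested on simulated data, and the other steps were not.

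Named members were the 10 highest by mean, the 10 highest and 10 lowest ratios at a mean of at least 100 FPKM, the 5 highest at the floor in each library, all listed scaRNA rows, U3, U8 and *Snord13*, the imprinted clusters, hosts with at least 4 listed members, the members nearest the 2-fold lines and the gene lists; others were chosen after their values were seen. Of the ranked lists some members are given by count or in another group, and 1 is not reported here. The members and lists were chosen with earlier results of these data known. *Snhg7*, *Snhg16* and *Nopchap1* were not matched as list genes. Alternatives changed the minimum, fold, pseudocount, scaling, length, row type and host definition.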

Additional observations from a re-analysis of the deposited data

How the results depend on the processing

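No paired analysis was possible because there is only 1 library of either genotype, and for the same reason no library could be left out. Counts are called stable within 1.5 times the main value, and medians, correlations and ratios within 0.1. By these limits 53 of 66 alternatives left their result in place and 13 did not. The limit of 0.1 exceeds the median log2 ratios it was applied to, 0.08 for members and 0.03 for hosts. It is close to the correlation of 0.13, so staying within it says little about the medians and the correlation. With *Snord* names only the median was 0.17 and still counted as in place. Dropping the minimum of 1 FPKM could not change the higher and lower counts. Every member above the floor in both libraries already passed it. Among the counts of higher and lower members, 1.5-fold gave 31 higher and 16 lower against 18 and 9, and 3-fold gave 7 higher. Members of at least 100 bases gave 10 higher and 4 lower. Counting members at the floor in 1 library gave 45 higher and 42 lower, and a minimum of 0.3 FPKM in 1 library only, with the other free to be at the floor, gave 45 higher (minimum in the knockout) and 44 lower (minimum in wild type). Of the alternatives chosen after seeing the data, 1 asked for a mean of at least 10 times the lowest FPKM at that length or shorter. It gave 4 higher and 1 lower, and took the correlation of member and host from 0.13 to 0.016. Of the 63 members at the floor in 1 library, 29 had at least 100 FPKM in the other. Scaling by the median ratio of protein_coding genes, 1.005, left all scaled results in place, and a factor this near 1 can move little. The unknown depth limits every short member, for which the lowest value listed at 90 to 99 bases is 214.6 FPKM in wild type and 441 FPKM in the knockout.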
